A study of Mus musculus with 11 samples.

Results

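The genes described here are 10 genes of fatty acid uptake and transport, chosen by name for their roles in the breakdown of circulating lipoproteins and in the entry and binding of fatty acids. They are Lpl, Gpihbp1 and Angptl4, the receptors Cd36 and Vldlr, the binding proteins Fabp3, Fabp4 and Fabp5, and the transport proteins Slc27a1 and Slc27a4. They are 10 of 22196 genes obtained from the transcript tables and 10 of the 12716 that had enough reads to be tested, so that none was lost to the filter on low counts. RNA was sequenced from the inguinal mammary gland of mice on normal chow, taken 16 days after delivery and labelled PND16.5. Both genotypes carried the floxed allele Tsc1-fl/fl. The 6 knockout libraries were also Adipoq-Cre-Tg/+, and the 5 wild-type libraries were Adipoq-Cre-+/+, so that wild-type here means without Cre. The Adipoq promoter drives Cre in adipocytes, and the other cells of the gland are not targeted in this model. The labels do not say which exons of Tsc1 are floxed, and they name no litter, batch or collection date. They number the samples of each genotype without saying that each came from a separate animal, so the p-values measure the spread between these samples.

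Lipoprotein lipase, the product of Lpl, cuts triglycerides in chylomicrons and very low density lipoproteins and frees fatty acids at the wall of the capillary. The endothelial protein GPIHBP1 carries the lipase across to that surface, and ANGPTL4 inactivates it. The freed fatty acids enter cells with the help of CD36 and of the fatty acid transport proteins, and small cytosolic proteins of the FABP family bind them inside the cell. Mammary epithelium in lactation draws fatty acids for milk fat from the blood in this way, and adipocytes use the same steps to store them.

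The libraries held between 25817975 and 37894237 estimated reads. The 10 genes together took between 0.289% and 0.495% of these reads. Levels of a gene are compared between libraries as CPM, reads brought to the same total in each library with a TMM factor that corrects for library composition. The deleted gene, Tsc1, had a mean of 10.1 CPM in knockout (SD 1.33, n = 6) against 10.7 CPM in wild-type (SD 1.11, n = 5). Its log2 fold change was -0.09 ± 0.11 (SE; adjusted p = 0.772, edgeR quasi-likelihood test), and counts summed over the whole gene in a tissue of mixed cells check neither the deletion nor the labels. Among 8 markers of secretory epithelium, all were detected, and their summed level was 399979 to 558439 CPM in the wild-type and 318807 to 447414 CPM in the knockout libraries. Nearly all of that sum came from the 4 milk protein genes among them, Csn2, Csn1s1, Wap and Lalba, with lower estimates in knockout (log2 fold changes of -0.27, -0.24, -0.32 and -0.14). The other 4, Krt8, Krt18, Elf5 and Epcam, had estimates of 0.48, 0.31, -0.25 and 0.25 and a sum of 399 to 720 CPM in wild-type against 483 to 803 CPM in knockout. By edgeR 0 of the 8 passed adjustment, and 1, Krt8, had an unadjusted p under 0.05. Among 8 adipocyte markers, all were detected, and the summed level was higher in every knockout library (940 to 1505 CPM) than in any wild-type library (546 to 861 CPM). Most of that sum was Cfd, and without Cfd the ranges were 189 to 315 and 181 to 242 CPM and overlapped. Of the 8 adipocyte markers, 7 had higher and 1, Lep, a lower estimate in knockout; edgeR called 0 of them and 5 had an unadjusted p under 0.05 (12.4% of all genes tested did), while DESeq2 called Adipoq and Cfd (1.09% of all genes it tested). In whole tissue, fewer cells of a type and less RNA per cell cannot be told apart. The summed level of 6 B cell markers was 0.808 to 13.3 CPM in knockout against 1.86 to 67.9 CPM in wild-type, and the 4 of them with enough reads were all lower in knockout at an unadjusted p under 0.05, with 0 past adjustment by edgeR. The library Knockout 1 stood apart with 2605 CPM of 8 skeletal muscle markers, against at most 238 CPM in any other library.

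The 3 FABP genes are relatives, and their coding sequences were compared because reads from one could in principle be assigned to another. Fabp3 and Fabp4 were identical at 257 of 400 aligned positions (64.2%), Fabp4 and Fabp5 at 59.3%, and Fabp3 and Fabp5 at 56.2%. The longest run of bases that Fabp3 and Fabp4 share is 14 bases long and is shown in capitals, within bases 56 to 109 of each coding sequence, 5′ to 3′ (transcripts of GENCODE M21).
Fabp3: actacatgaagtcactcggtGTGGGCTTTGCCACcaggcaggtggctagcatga
Fabp4: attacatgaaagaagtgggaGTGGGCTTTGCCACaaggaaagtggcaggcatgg
The longest shared runs were 12 bases for Fabp4 and Fabp5 and 10 bases for Fabp3 and Fabp5. Over all annotated transcripts in the tables, none of the 10 genes held a coding stretch of 30 bases that also occurred in the coding sequence of another gene. Sequences were compared in the coding orientation only, so stretches shared with the reverse complement of another gene were not looked for. Fabp3 overlaps Gm10570 and Zcchc17 on the opposite strand of the genome. Whether the authors' counting used the strand is not given in the sources used here.

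Levels were compared between genes as TPM, which corrects for transcript length. Fabp3, the heart-type binding protein, stood at 6736 TPM on average over the 11 libraries (range 3526 to 8722). Fabp4, the adipocyte-type binding protein, followed at 628 TPM (389 to 893), Cd36 at 237 TPM (193 to 307) and Lpl at 210 TPM (171 to 250). Fabp3 was thus the highest and Fabp4 the next in every library by TPM, while Cd36 was above Lpl in 9 of 11 libraries and their ranges overlapped. On average 14.98% of the TPM of Cd36 came from Cd36-205, a short transcript described below. The order of Cd36 and Lpl could depend on that assignment.

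Fabp5, the epidermal-type binding protein, was at 70.1 TPM (43.3 to 104) and was separate from its neighbours in the order. Gpihbp1 at 26.5 TPM (20.5 to 33.5), Slc27a1 at 22.6 TPM (16.2 to 38.2), Angptl4 at 13.0 TPM (2.87 to 42.0) and Slc27a4 at 10.3 TPM (8.61 to 13.2) came next, and the ranges of neighbours among these 4 overlapped. Vldlr was the lowest at 1.99 TPM (1.04 to 3.40), below every value of Slc27a4. The places of Cd36 against Lpl and of Gpihbp1 against Slc27a1 were exchanged when CPM was divided by the full length of the main transcript, and the other 6 genes kept their place. By that measure the mean of Fabp4, 534 CPM per kilobase, was close to that of Lpl, 502, against 628 and 210 by TPM. The tables gave the binding proteins effective lengths well under their listed lengths, for Fabp3 122.0 of 402 bases, for Fabp4 120.4 of 399 and for Fabp5 125.7 of 408, so that their TPM depends more than that of the long genes on this correction.

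**Figure D1:**
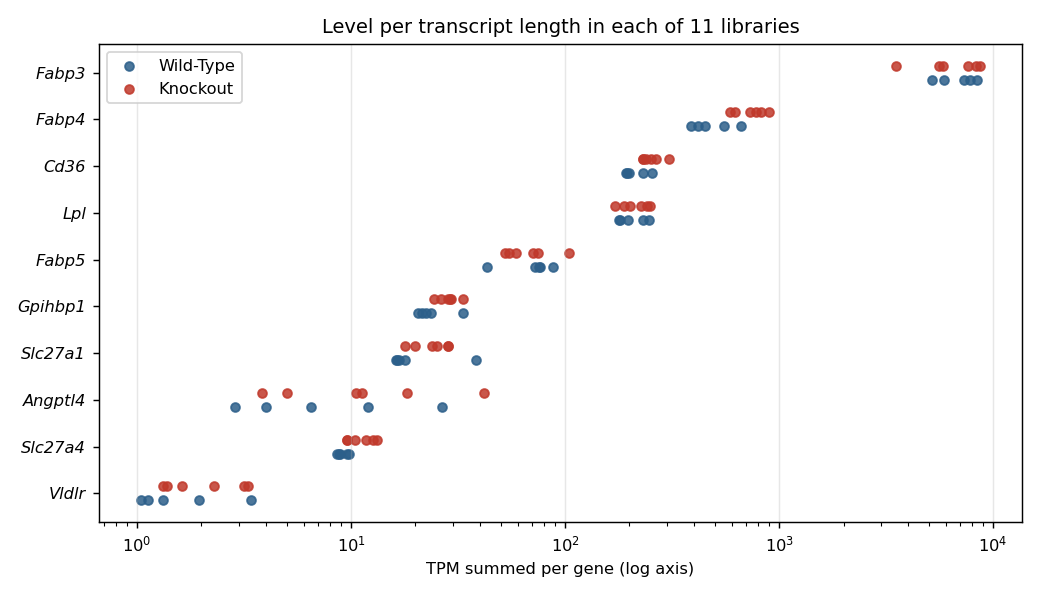
TPM summed per gene (log axis) for each of the 10 genes, ordered by mean level, with a point per library in blue for wild-type (n = 5) and red for knockout (n = 6). Fabp3 lies between 3526 and 8722 TPM, above every value of the other 9 genes, and Vldlr between 1.04 and 3.40 TPM, below all values of its neighbour Slc27a4.

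The comparison of knockout with wild-type libraries asks whether transcripts for fatty acid uptake differ in the gland when adipocytes lack Tsc1. None of the 10 genes passed the test by edgeR at an adjusted p of 0.05, against 7 of the 12716 genes tested (0.0550%), of which 6 were higher (0.0472%) and 1 lower (0.00786%) in knockout. At an unadjusted p under 0.05 there were 2 of 10, Fabp4 and Vldlr, both higher in knockout, against 12.4% of all genes tested. DESeq2 called 1 of 10, Fabp4, against 1.09% of the genes it tested, and limma-voom and limma on the authors' normalized values called 0. Of the 10 estimates, 4 were higher and 6 lower in knockout, with a median log2 fold change of -0.05 against -0.01 over all genes tested. Scaling by total reads alone moved the median of all genes tested to 0.18 and the estimates of Lpl, Gpihbp1, Cd36 and Slc27a1 from below 0 to between 0.00 and 0.15, still below that median. For each of the 10 genes the knockout and wild-type values overlapped, while the genotypes did not overlap for 1.32% of all genes tested.

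**Figure D2:**
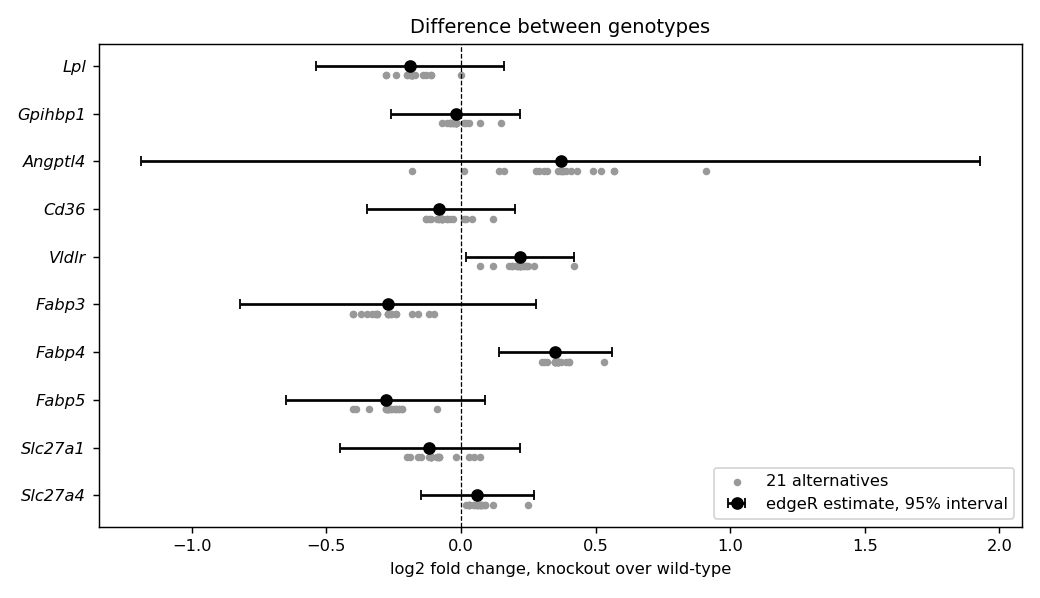
Log2 fold change of knockout over wild-type for each gene, with the edgeR estimate and its 95% interval in black and the estimates of 21 alternative analyses in grey. The intervals of Fabp4 (0.14 to 0.56) and Vldlr (0.02 to 0.42) lie above 0 and all others include 0, with the widest for Angptl4 (-1.19 to 1.93).

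Of the genes of lipolysis, Lpl had a lower mean in knockout that did not pass the test, and Gpihbp1 had similar means. Angptl4 varied more between libraries of a genotype than between genotypes. Lpl (ENSMUSG00000015568, GRCm38 chr8:68880491-68907448, plus strand) had 14734 to 29288 reads per library. Its wild-type values were 925, 749, 728, 556 and 876 CPM, and its knockout values had a lowest of 503, a median of 650 and a highest of 881 CPM. Only Knockout 2, at 503 CPM, fell below all wild-type libraries. The mean was 674 CPM in knockout (SD 144, n = 6) against 767 CPM in wild-type (SD 144, n = 5), and the log2 fold change was -0.19 ± 0.16 (SE; 95% interval -0.54 to 0.16; edgeR adjusted p = 0.663). The interval, 0.690-fold to 1.12-fold, leaves room for a level in knockout well below that in wild-type and for one slightly above it. Lpl had a single transcript in the tables.

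Gpihbp1 (ENSMUSG00000022579, chr15:75596628-75599481, plus strand) is made by capillary endothelium and had 631 to 960 reads per library. The wild-type values were 24.8, 26.4, 25.0, 29.2 and 24.2 CPM, and its knockout values ran from 17.9 through a median of 26.3 to 29.8 CPM. Knockout 1, the library with the muscle transcripts, was the low one, and the other 5 knockout libraries were between 26.1 and 29.8 CPM. Gpihbp1 had a log2 fold change of -0.02 ± 0.11 (95% interval -0.26 to 0.22; edgeR adjusted p = 0.955), and 0.07 without Knockout 1. The summed level of 8 endothelial markers was 83.0 to 132 CPM in knockout (mean 108) against 86.8 to 132 CPM in wild-type (mean 107), with the lowest value also in Knockout 1. Relative to Lpl, Gpihbp1 had a log2 ratio of TPM of -2.90 ± 0.34 in knockout and -3.10 ± 0.41 in wild-type, with overlapping values.

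Angptl4 (ENSMUSG00000002289, chr17:33773750-33781830, minus strand), the inhibitor of the lipase and a gene known to respond to fasting, was the most variable of the 10. Wild-type libraries had 38.9, 8.77, 21.8, 66.1 and 11.5 CPM, and the knockout values had a lowest of 10.2, a median of 30.7 and a highest of 99.1 CPM. The highest library, Knockout 2, was 11.3 times the lowest, Wild-Type 2, although all had at least 210 reads. Its coefficient of variation over the 11 libraries, 82.4%, was above that of 97.3% of the genes tested. High and low values occurred in both genotypes, and the log2 fold change of 0.37 ± 0.70 had a 95% interval from -1.19 to 1.93 (edgeR adjusted p = 0.863). Its sign and size changed with the library left out, since it was -0.18 without Knockout 2 and 0.91 without Wild-Type 4. The log2 ratio of TPM of Angptl4 over Lpl was -4.27 ± 1.42 in knockout and -4.77 ± 1.36 in wild-type, and the values overlapped.

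**Figure D3:**
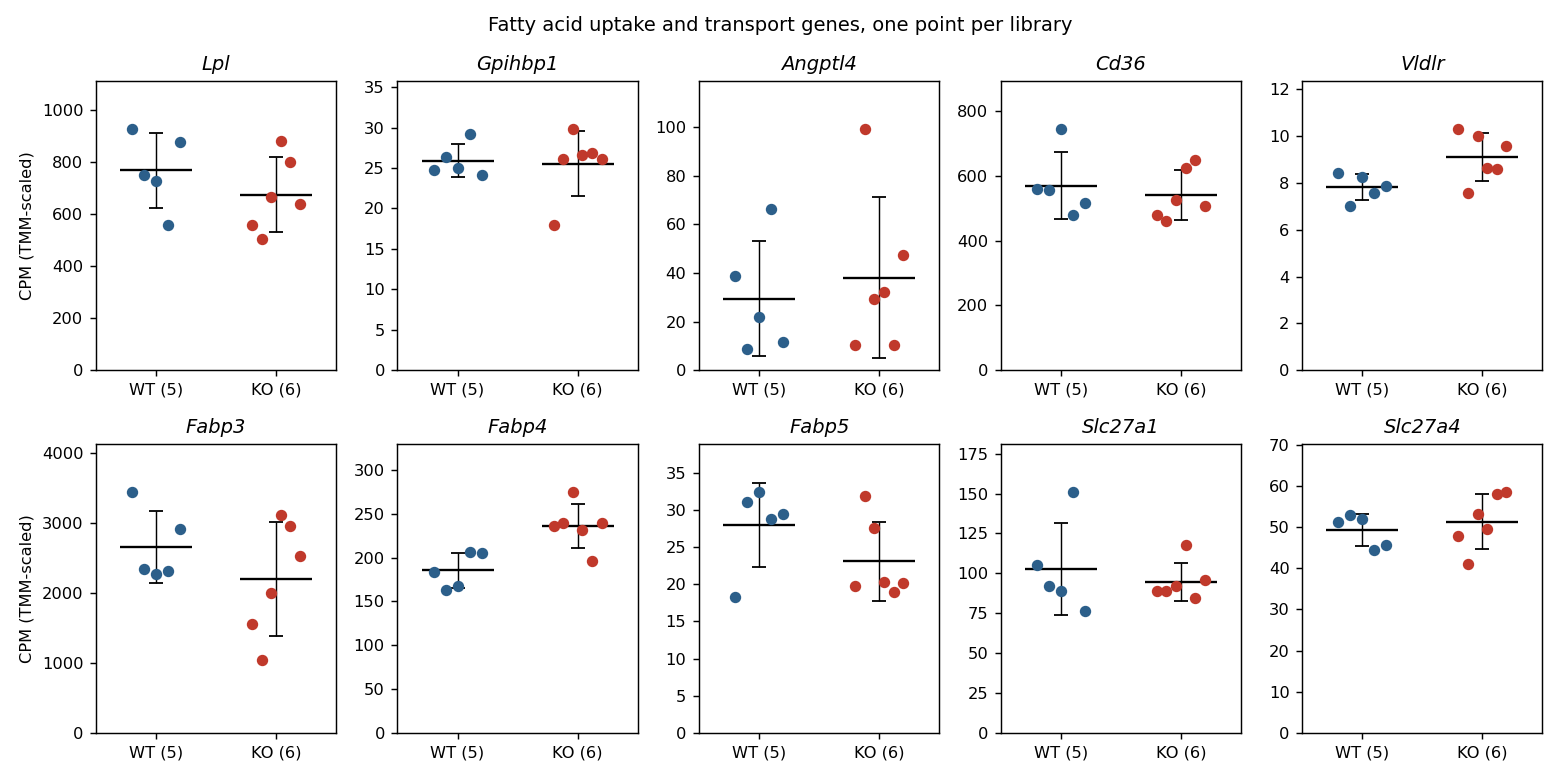
TMM-scaled CPM of each gene in every library (points), with the mean (line) and SD (bars) for wild-type (WT, n = 5) and knockout (KO, n = 6); each axis starts at 0. Fabp4 and Vldlr each have 5 of 6 knockout points above all wild-type points, and Angptl4 spreads from 8.77 to 99.1 CPM across both genotypes.

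The receptors differed in level and in how they stood between genotypes. Cd36 (ENSMUSG00000002944, chr5:17781690-17888801, minus strand), the scavenger receptor that takes up long-chain fatty acids, had 13302 to 23674 reads per library. In wild-type the values were 558, 556, 744, 478 and 515 CPM, and its knockout values had a lowest of 461, a median of 516 and a highest of 650 CPM. Wild-Type 3 was the highest of all, and the remaining libraries of both genotypes were intermixed. For Cd36 the log2 fold change was -0.08 ± 0.13 (95% interval -0.35 to 0.20; edgeR adjusted p = 0.844) and 0.04 without Wild-Type 3. A short transcript, Cd36-205, which spans 427 bases contained in the main coding transcript and has no sequence of its own, was assigned 3.14% of the reads of Cd36 in knockout (2.29% to 4.25%) and 1.76% in wild-type (0.59% to 2.68%), with overlapping ranges. That assignment carried 14.98% of the TPM of the gene on average.

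Vldlr (ENSMUSG00000024924, chr19:27216484-27254231, plus strand) encodes the very low density lipoprotein receptor, which binds triglyceride-rich particles and works together with the lipase. With 168 to 462 reads per library it was the least covered of the 10. The 5 wild-type values were 8.44, 7.02, 8.26, 7.56 and 7.86 CPM, and its knockout values had a lowest of 7.57, a median of 9.12 and a highest of 10.3 CPM. Of the 6 knockout libraries, 5 were above all wild-type libraries, and Knockout 2 lay among them. The mean was 9.11 CPM in knockout (SD 1.02, n = 6) against 7.83 CPM in wild-type (SD 0.568, n = 5). The log2 fold change, 0.22 ± 0.09 (95% interval 0.02 to 0.42), did not pass the edgeR test (adjusted p = 0.377; unadjusted p = 0.0373). The estimate was 0.07 when the average length of the transcripts was taken into account and was 0.42 on total reads alone.

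That dependence on length could be followed in the transcripts of Vldlr. The main one, Vldlr-208, took 61.45% of the reads of the gene in knockout and 57.98% in wild-type. Vldlr-207 (25.59% and 27.23%) has in addition an exon of 84 bases, the coding exon 16 of 19, which encodes the stretch of the receptor that carries O-linked sugars. Vldlr-202 (11.9% and 13.06%) lacks an exon of 123 bases, coding exon 4, which encodes a cysteine-rich ligand-binding repeat. These exons are what tells the main forms apart, and they are printed in capitals with 20 bases of the neighbouring exons on each side in lower case (GRCm38, plus strand, spliced, 5′ to 3′). The first is at chr19:27246593-27246676 and the second at chr19:27236240-27236362.
Vldlr exon of 84 bases: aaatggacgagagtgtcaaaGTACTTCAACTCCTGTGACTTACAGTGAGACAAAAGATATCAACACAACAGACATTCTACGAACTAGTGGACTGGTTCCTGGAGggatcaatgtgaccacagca
Vldlr exon of 123 bases: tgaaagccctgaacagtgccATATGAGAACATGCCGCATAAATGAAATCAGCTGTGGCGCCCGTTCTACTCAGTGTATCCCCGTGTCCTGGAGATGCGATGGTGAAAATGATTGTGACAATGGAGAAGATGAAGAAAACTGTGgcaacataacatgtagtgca
The share of reads given to the form without the second exon ran from 2.59% to 21.47% in knockout and from 4.22% to 21.45% in wild-type libraries, so that the genotypes covered the same range. The transcript Vldlr-205, of 269 bases and an effective length of 50.5, took 0.89% of the reads in knockout and 1.25% in wild-type. Because of its small effective length it held between 0% and 66.11% of the TPM of the gene (mean 21.17%), and the average effective length of Vldlr ranged from 766 to 2187 bases between libraries. The TPM of Vldlr therefore depended in several libraries on very few reads, and CPM is used for its comparison between genotypes.

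**Figure D4:**
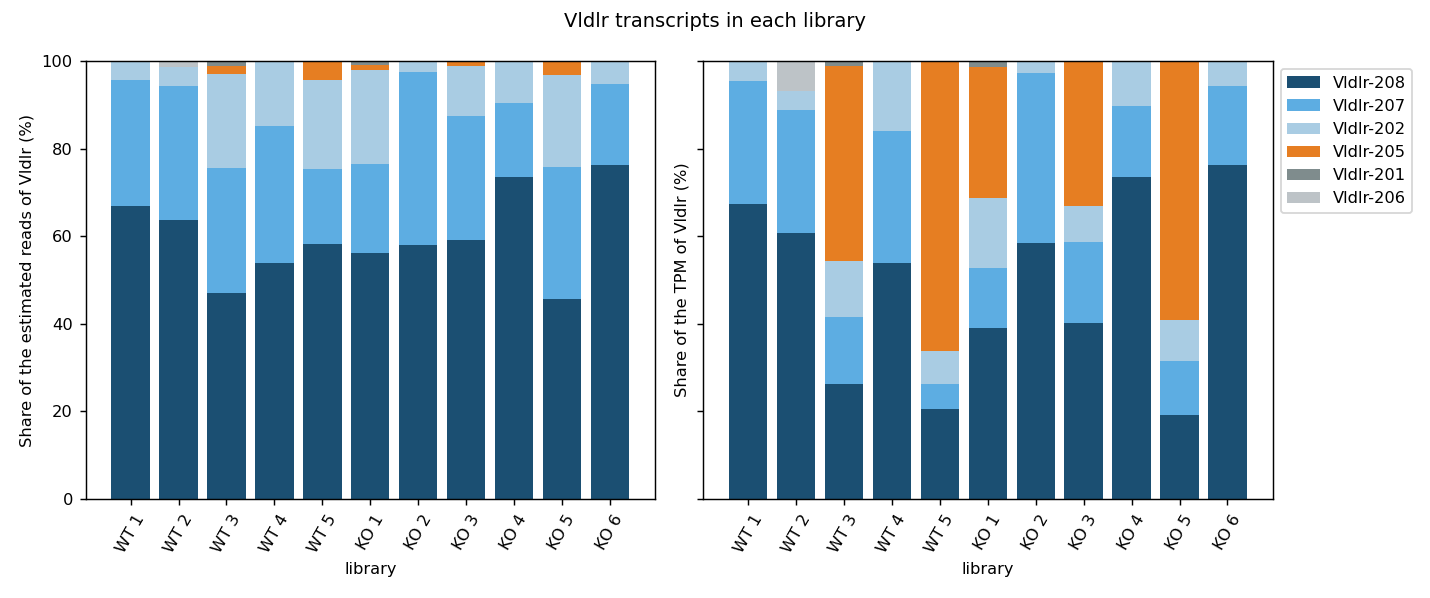
Share of each Vldlr transcript in the estimated reads (left) and in the TPM (right) of the gene, as stacked bars for each wild-type (WT) and knockout (KO) library. Vldlr-208 is the main form by reads in every library, while the short Vldlr-205 (orange) takes a few percent of reads at most and up to 66.11% of TPM.

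Among the binding proteins, Fabp4 had the highest knockout values relative to wild-type of the 3, and Fabp3 and Fabp5 had lower means in knockout that did not pass the test. Fabp4 (ENSMUSG00000062515, chr3:10204088-10208576, minus strand), the binding protein abundant in adipocytes and also made by capillary endothelium and macrophages, had 3913 to 10636 reads per library. Wild-type libraries had 184, 163, 168, 207 and 205 CPM, and the knockout values had a lowest of 196, a median of 238 and a highest of 275 CPM. Of the 6 knockout libraries, 5 lay above all wild-type libraries and Knockout 5, at 196 CPM, lay within the wild-type range. The mean was 236 CPM in knockout (SD 25.2, n = 6) against 185 CPM in wild-type (SD 20.3, n = 5), or 1.28-fold (95% interval 1.10 to 1.47). The log2 fold change of 0.35 ± 0.10 had an edgeR adjusted p of 0.255 (unadjusted p = 0.00293), and DESeq2 gave 0.36 ± 0.10 with an adjusted p of 0.0400. Over all alternatives the adjusted p ran from 0.0400 to 0.571, and leaving out any library gave log2 fold changes between 0.30 and 0.40. On total reads alone the estimate was 0.53.

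Marker levels of the cells that make Fabp4 are given beside this difference. The summed adipocyte markers had a mean of 1151 CPM in knockout (SD 202, n = 6) against 730 CPM in wild-type (SD 127, n = 5), and without Cfd 246 CPM (SD 44.5) against 202 CPM (SD 24.2) with overlapping ranges, while the 8 endothelial markers and the 8 macrophage markers (105 and 107 CPM) had similar means in the genotypes. Over the 11 libraries Fabp4 and the adipocyte sum had Pearson's r = 0.71 (permutation p = 0.0155) and Spearman's rho = 0.69 (p = 0.0227), with r = 0.62 without the 2 libraries farthest from the median and r = 0.19 after each genotype was centred on its own mean. With the sum without Cfd the relation was r = 0.67 (permutation p = 0.0244, adjusted 0.0815) and rho = 0.76 (p = 0.00892, adjusted 0.137), with r = 0.69 without Knockout 1 and Knockout 2 and 0.46 after centring. Fabp4 also had r = -0.67 (permutation p = 0.0233) and rho = -0.71 (p = 0.0184) with the secretory epithelium markers, with r = -0.60 without the farthest 2 libraries and -0.41 after centring, but r = 0.53 (permutation p = 0.0910, adjusted 0.180) and rho = 0.63 (p = 0.0440, adjusted 0.147) with the 4 of these markers that are not milk protein genes. The relations with the full sums are among 50 relations of the 10 genes with 5 marker sums (adipocyte, endothelium, secretory epithelium, skeletal muscle and macrophage), none of which passed adjustment (the adjusted values here are 0.155 and 0.162 for the adipocyte and 0.194 and 0.153 for the epithelial sum). Whether the amount of adipocyte RNA has a part in the difference in Fabp4 was not tested.

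Fabp3 (ENSMUSG00000028773, chr4:130308595-130315463, plus strand), which is abundant in mammary epithelium and was once described as a mammary growth inhibitor, had 30631 to 103609 reads per library. In wild-type the values were 3441, 2335, 2263, 2311 and 2912 CPM, and its knockout values had a lowest of 1045, a median of 2267 and a highest of 3115 CPM. Knockout 1 and Knockout 2, at 1558 and 1045 CPM, and Knockout 3, at 2002 CPM, were below all wild-type libraries, and the other 3 knockout libraries lay within the wild-type range. The log2 fold change was -0.27 ± 0.25 (95% interval -0.82 to 0.28; edgeR adjusted p = 0.693). The summed secretory epithelium markers, nearly all milk protein reads, were lowest in Knockout 1 and Knockout 2 as well, and Fabp3 had r = 0.62 (permutation p = 0.0451, adjusted 0.251) and rho = 0.51 (p = 0.114, adjusted 0.477) with them, with r = 0.70 without Knockout 1 and Wild-Type 3. With the 4 of these markers that are not milk protein genes, Fabp3 had r = -0.52 (permutation p = 0.0939, adjusted 0.180) and rho = -0.35 (p = 0.285, adjusted 0.523).

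Fabp5 (ENSMUSG00000027533, chr3:10012548-10016607, plus strand), which is found in epithelia, endothelium and macrophages, had 517 to 1033 reads per library. The 5 wild-type values were 18.3, 31.0, 32.4, 28.7 and 29.4 CPM, and its knockout values had a lowest of 19.0, a median of 20.2 and a highest of 31.9 CPM. In both genotypes the values fell into a lower part near 20 CPM and a higher part near 30 CPM, with 4 knockout libraries and Wild-Type 1 in the lower. For Fabp5 the log2 fold change was -0.28 ± 0.17 (95% interval -0.65 to 0.09; edgeR adjusted p = 0.527), and -0.40 without Wild-Type 1.

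Of the summed TPM of the 3 binding proteins, Fabp3 made up 88.0% ± 5.23 in knockout (SD, n = 6) against 92.3% ± 1.35 in wild-type (SD, n = 5). Fabp4 made up 10.9% ± 4.59 against 6.66% ± 1.11, and Fabp5 1.07% ± 0.671 against 0.992% ± 0.314. The log2 ratio of TPM of Fabp4 over Fabp3 ran from -3.89 to -2.10 in knockout (mean -3.11) and from -4.21 to -3.46 in wild-type (mean -3.81). The ranges overlapped, and the ratio combines a higher Fabp4 with a lower Fabp3 mean in knockout, of which neither passed the edgeR test.

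The transport proteins showed no difference beyond the spread between libraries. Slc27a1 (ENSMUSG00000031808, chr8:71568882-71587302, plus strand) encodes FATP1, a membrane protein that brings in fatty acids and activates them with coenzyme A, known from muscle and adipocytes. Its wild-type values were 105, 92.1, 89.2, 151 and 76.6 CPM, and its knockout values had a lowest of 84.7, a median of 90.5 and a highest of 118 CPM. Wild-Type 4 stood high, and the knockout libraries other than Knockout 4 were between 84.7 and 95.7 CPM. The log2 fold change was -0.12 ± 0.15 (95% interval -0.45 to 0.22; edgeR adjusted p = 0.798) and was 0.07 without Wild-Type 4.

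Slc27a4 (ENSMUSG00000059316, chr2:29802634-29817522, plus strand) encodes FATP4, a related acyl-CoA synthetase and transporter of broad expression. Its wild-type values were 51.3, 52.8, 51.9, 44.3 and 45.7 CPM, and its knockout values had a lowest of 41.1, a median of 51.3 and a highest of 58.5 CPM. The knockout values surrounded the wild-type values, with a log2 fold change of 0.06 ± 0.10 (95% interval -0.15 to 0.27; edgeR adjusted p = 0.830). The log2 ratio of TPM of Slc27a4 over Slc27a1 was -1.08 in knockout and -1.12 in wild-type, a difference of 0.03 with overlapping values.

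Some of the 10 genes varied together from library to library. All 45 pairs were examined, a step chosen after the data had been seen, and 1 pair passed adjustment. Lpl and Fabp3 had Pearson's r = 0.87 over the 11 libraries (permutation p = 1.5e-04, adjusted 0.00675) and Spearman's rho = 0.86 (p = 0.00104, adjusted 0.0468). The relation was r = 0.79 without Knockout 1 and Knockout 2, the libraries farthest from the median of Fabp3, and r = 0.85 after each genotype was centred on its mean. The libraries thus kept nearly the same order by Lpl, the enzyme that frees fatty acids, and by Fabp3, which binds them in the cell. Lpl and Cd36 had r = 0.61 (permutation p = 0.0485, adjusted 0.537) and rho = 0.74 (p = 0.0128, adjusted 0.288), and r = 0.84 without the farthest 2 libraries.

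Against the secretory epithelium markers, Cd36 had r = 0.74 (permutation p = 0.00816) and rho = 0.78 (p = 0.00602), with r = 0.58 without the farthest 2 libraries and 0.81 after centring. Lpl had r = 0.72 (permutation p = 0.0126) and rho = 0.75 (p = 0.0110) with the same sum, with r = 0.83 without the farthest 2 libraries and 0.69 after centring. With the skeletal muscle markers Cd36 had r = -0.79 (permutation p = 0.00351) and rho = -0.75 (p = 0.00990), with r = -0.73 without Knockout 1 and Wild-Type 3 and -0.79 after centring. These 3 relations had adjusted values of 0.155 for r and 0.110 for rho. Gpihbp1 had r = -0.64 (permutation p = 0.0305, adjusted 0.218) and rho = -0.78 (p = 0.00666, adjusted 0.110) with the macrophage markers, with r = -0.44 without Knockout 1 and Knockout 3. With the endothelial markers Gpihbp1 had r = 0.59 (permutation p = 0.0393, adjusted 0.246) and rho = 0.51 (p = 0.114, adjusted 0.477), with r = 0.43 without Knockout 1 and Knockout 2. Vldlr and the adipocyte sum had r = 0.71 (permutation p = 0.0148, adjusted 0.155) and rho = 0.82 (p = 0.00306, adjusted 0.110), with r = 0.77 without the farthest 2 libraries and r = 0.42 after centring.

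These relations changed with the markers in the sum, as 20 further relations chosen after the data had been seen showed. With Krt8, Krt18, Elf5 and Epcam alone, the sign turned for Lpl (r = -0.74, permutation p = 0.0102, adjusted 0.0680; rho = -0.69, p = 0.0225, adjusted 0.137; r = -0.49 without the farthest 2 libraries) and for Cd36 (r = -0.52, p = 0.0990, adjusted 0.180; rho = -0.57, p = 0.0707, adjusted 0.177; r = -0.25 without the farthest 2). Angptl4 had r = -0.17 (permutation p = 0.620, adjusted 0.795) with the full sum and 0.71 (p = 0.0158, adjusted 0.0789) with these 4 markers, with rho of -0.27 (p = 0.417) and 0.65 (p = 0.0330, adjusted 0.137) and r = 0.41 without the farthest 2 libraries. The sign of r differed between both sums for each of the 10 genes except Gpihbp1 (0.43 and 0.15), and no relation with either sum passed adjustment. All values compared share the scaling of their library, whose part in these relations was not tested. With the adipocyte sum without Cfd, Vldlr had r = 0.23 (permutation p = 0.508, adjusted 0.677) and rho = 0.29 (p = 0.387, adjusted 0.596). Lpl (r = -0.79, permutation p = 0.00331, adjusted 0.0331) and Fabp3 (r = -0.81, p = 0.00273, adjusted 0.0331) passed adjustment with that sum by r, but not by rho (-0.65 and -0.58, adjusted 0.137 and 0.177). Without Knockout 1 and Knockout 2 the r was -0.56 for Lpl and -0.34 for Fabp3, so that these relations rested in large part on those libraries.

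**Figure D5:**
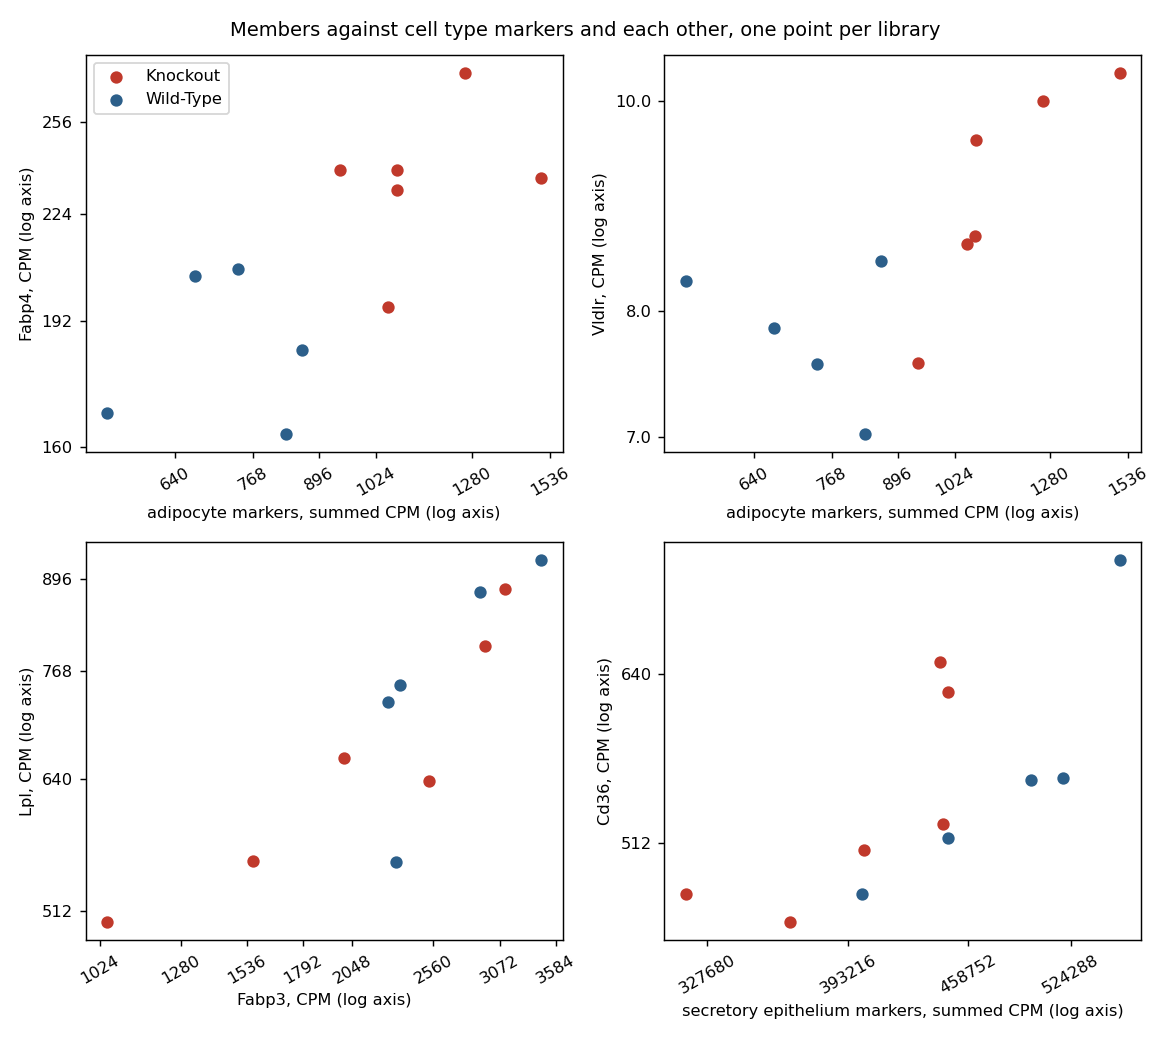
CPM on log axes with a point per library (red knockout, n = 6; blue wild-type, n = 5), for Fabp4 and Vldlr against the summed adipocyte markers, Lpl against Fabp3, and Cd36 against the summed secretory epithelium markers. In the upper panels the knockout points lie to the right of all wild-type points (940 to 1505 against 546 to 861 CPM, mostly Cfd), and in the lower panels points of both genotypes are intermixed along the vertical axis.

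For each of the 10 genes, the genes most like it were sought by Pearson's r of log2 CPM over the 11 libraries among 5242 genes with a mean of at least 10 CPM, as a description only. The highest of so many values of r over 11 libraries can be large by chance, and no background for them was computed. The closest to Lpl were Olah (r = 0.93), the thioesterase that ends fatty acid synthesis at medium chain length in mammary gland, Sntb1 (0.93) and Cops3 (0.92). Those closest to Fabp3 were Gramd1b (0.94), Mia3 (0.94) and Mavs (0.93), and those closest to Cd36 were Abhd14b (0.92), Gprc5b (0.90) and Atp6ap2 (0.89). The most like Gpihbp1 were Cc2d1b (0.95), Phka2 (0.87) and Slco2a1 (0.85), the last a prostaglandin transporter known from endothelium. Angptl4 was closest to Desi1 (0.96), Krcc1 (0.93) and Gabarapl1 (0.92), the last a member of the autophagy machinery. Vldlr was closest to Virma (0.89), Med14 (0.88) and Arhgap5 (0.86), and Fabp4 to Suco (0.92), Rps6ka3 (0.88) and Adnp (0.86). The neighbours of Fabp5 were genes of RNA binding proteins, Hnrnpl (0.95), Pabpn1 (0.93) and Hnrnpdl (0.91). Slc27a1 was closest to Phlpp1 (0.90), Iigp1 (0.87) and Wdtc1 (0.85), and Slc27a4 to Rab1b (0.90), Prepl (0.88) and Ampd2 (0.85).

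The other genes of the pathway were followed in 5 lists with 65 genes, of which 51 had enough reads. By edgeR 0 of the 51 passed the adjusted threshold, and 13 (25.5%) had an unadjusted p under 0.05, 11 higher and 2 lower, against 12.4% of all genes tested. The median log2 fold change of the 51 was 0.07. DESeq2 called 3 of them, Cav2, Pcsk5 and Acsm3, all higher in knockout, against 1.09% of all genes it tested, and limma-voom called 0.

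Of 17 genes listed as partners and inhibitors of the lipase, a list that also holds related lipases, 12 were tested. They had 9 higher and 3 lower estimates and a median of 0.13. The smallest p-value was that of Pcsk5, a proprotein convertase that can cut lipases, at 2.39 ± 0.578 CPM in knockout against 1.33 ± 0.208 CPM in wild-type (SD). Its log2 fold change was 0.84 ± 0.19 with an edgeR adjusted p of 0.218, and DESeq2 gave an adjusted p of 0.0201.

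Of 14 lipoprotein and fatty acid receptors and their partners, 13 were tested, 11 with higher and 2 with lower estimates and a median of 0.19. Cav2, a protein of caveolae, had the smallest p-value, with 10.9 ± 2.74 CPM in knockout (8.08 to 15.1) against 3.88 ± 3.42 CPM in wild-type (1.88 to 9.97). A single wild-type library, Wild-Type 5, lay within the knockout range, and the log2 fold change was 1.49 ± 0.42 with an edgeR adjusted p of 0.270. Without Wild-Type 5 it was 2.21 with an edgeR adjusted p of 0.00216, and DESeq2 on all libraries gave 1.50 with 0.0155.

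Of the other 14 binding and transport proteins, 7 were tested, 4 with higher and 3 with lower estimates and a median of 0.03. The 7 left untested were Fabp1, Fabp2, Fabp6, Fabp7, Fabp9, Slc27a5 and Slc27a6. Slc27a2 had the smallest p-value at 0.540 ± 0.329 CPM in knockout against 0.172 ± 0.158 CPM in wild-type (log2 fold change 1.57 ± 0.59, edgeR adjusted p = 0.341), on 1 to 32 reads per library. The 5 FABP genes of this list were thus all below the level needed for a test, unlike Fabp3, Fabp4 and Fabp5.

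Of the 9 acyl-CoA synthetases, which trap fatty acids in the cell as thioesters, all were tested, 4 with higher and 5 with lower estimates and a median of -0.03. Acsl3 had the smallest p-value, with 5.89 ± 0.830 CPM in knockout against 4.19 ± 0.759 CPM in wild-type (log2 fold change 0.49 ± 0.14, edgeR adjusted p = 0.263). Acsm3, named here because DESeq2 called it, had an edgeR log2 fold change of 1.88 ± 0.51 that did not pass (adjusted p = 0.263). DESeq2 gave 1.89 ± 0.46 with an adjusted p of 0.00875, and edgeR called it without Knockout 2 (2.11, adjusted p = 0.0472).

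Of 11 transcription factors and coactivators of lipid uptake, 10 were tested, 2 with higher and 8 with lower estimates and a median of -0.06. Rxrb, the partner of many nuclear receptors, had the smallest p-value, with 18.1 ± 1.08 CPM in knockout against 20.8 ± 1.26 CPM in wild-type (log2 fold change -0.20 ± 0.07, edgeR adjusted p = 0.310). Pparg, the receptor that drives Fabp4, Cd36 and Lpl in adipocytes, was at 10.4 and 9.59 CPM, a log2 fold change of 0.12 ± 0.12 (edgeR adjusted p = 0.725); it is named for that role after its values were seen.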

How the data were processed

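RNA-seq of 11 libraries (6 knockout, 5 wild-type) was used. Per the submitters' processing notes, the tools were Salmon 1.3.0 and DESeq2 1.28.1 and the genome build GRCm38.p6. Per the file headers, the deposited tables give for each transcript its length, effective length, TPM and estimated count. Gene values that the authors deposited under a name calling them normalized with DESeq2 are treated here as a signal on their scale and served only for an alternative (limma on log2 of the value plus a pseudocount of 1).

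The deposited counts were summed per gene with GENCODE M21, rounded and tested. Of 58204 transcripts, 57452 matched; the other 752 held 0.195% to 0.265% of the reads. Listed lengths were within 3 bases of the coding length for 93.9% of transcripts with a coding sequence, so untranslated regions were mostly not counted. The main test was edgeR 4.0.16 (R 4.3.3; TMM, filterByExpr, robust quasi-likelihood, genotype alone) with Benjamini-Hochberg adjustment over 12716 genes and a threshold of 0.05; log2 fold changes are given ± SE. Alternatives used DESeq2 1.42.0, limma 3.58.1, other scalings and each library left out. Correlations use log2 CPM (prior count 2) and 100000 permutations. Vldlr had the fewest reads, 168 to 462 per library. No 2 libraries of a genotype agreed within sampling noise (chi-square per degree of freedom at least 21.9 over 25 pairs).

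Named besides the 10 genes are Tsc1, the gene with the smallest p-value of each pathway list, and the 3 genes most like each of the 10, predicted genes passed over. Outside this rule, named after their values were seen, are Acsm3, Pparg and single cell type markers; genes overlapping Fabp3 and untested list genes are named without values. The genes and lists were chosen with earlier results of these data known.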

Additional observations from a re-analysis of the deposited data

Results flagged for a closer look

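In 36 sets of values (the 10 genes and 8 marker sums in each genotype), a single library was looked for whose gap to the next exceeded Dixon's critical value; 6 were found, and chance gives about 1 in 20. Gpihbp1 was at 17.9 CPM in Knockout 1, against 26.1 to 29.8 CPM in the other knockout libraries. Fabp5 was at 18.3 CPM in Wild-Type 1, against 28.7 to 32.4 CPM in the other wild-type libraries. Slc27a1 was at 118 CPM in Knockout 4, against 84.7 to 95.7 CPM.

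Among marker sums, skeletal muscle stood at 2605 CPM in Knockout 1, against 2.89 to 228 CPM in the other knockout libraries, and B cell markers at 13.3 CPM in the same library, against 0.808 to 2.95 CPM in the other knockout libraries and 1.86 to 67.9 CPM in wild-type. The sum of 3 genes listed as brown adipocyte markers was at 1804 CPM in Wild-Type 4, against 2420 to 2664 CPM in the other wild-type libraries. In knockout it ran from 1434 to 2054 CPM. Cidea made up nearly the whole sum, with a lower estimate in knockout (log2 fold change -0.40 ± 0.12, edgeR adjusted p = 0.274). Cox8b was at 0.865 CPM in knockout against 0.426 CPM in wild-type, and Ucp1 had too few reads to be tested. The sum is therefore not a measure of brown fat.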

How the results depend on the processing

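Fabp3, Fabp4, Fabp5, Vldlr and Slc27a4 kept the sign of their log2 fold change in all 21 alternatives, and Fabp4 passed the threshold in 1 of them, DESeq2 (0.36, adjusted p = 0.0400). The size was less stable for Vldlr, which was 0.22 in the main test, 0.07 with transcript length offsets and 0.12 on the authors' normalized values. With total reads alone as scaling, which moved the median of all genes tested to 0.18, the signs of Lpl (0.00), Gpihbp1 (0.15), Cd36 (0.12) and Slc27a1 (0.05) turned, with each value still below that median. With transcript length offsets Gpihbp1 (0.02) and Cd36 (0.01) turned, and on the authors' normalized values Gpihbp1 (0.01), Cd36 (0.02) and Slc27a1 (0.03); the cause was not tested, and the main estimates of these 3 genes were within 1 SE of 0. With a library left out, the values ran from -0.18 to 0.91 for Angptl4, from -0.07 to 0.07 for Gpihbp1, from -0.13 to 0.04 for Cd36 and from -0.20 to 0.07 for Slc27a1. The other ranges were -0.28 to -0.11 for Lpl, -0.40 to -0.12 for Fabp3, -0.40 to -0.22 for Fabp5, 0.30 to 0.40 for Fabp4, 0.18 to 0.27 for Vldlr and 0.03 to 0.12 for Slc27a4.

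The count of the 10 genes past the threshold was 0 with any library left out and 1 by DESeq2. For the 51 tested genes of the pathway lists it was 3 by DESeq2 and 0 to 1 with a library left out (1 without Knockout 2 or Wild-Type 5). Over all genes it was 7 in the main test, 146 by DESeq2 and 0 to 28 with a library left out (0 without Knockout 3 or Knockout 6, 2 without Knockout 1 or Wild-Type 3, 28 without Knockout 2, 14 without Wild-Type 4, 13 without Wild-Type 1 or Wild-Type 5). By length-scaled CPM in place of TPM, 6 of the 10 genes kept their place in the order of levels.

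Both genotypes use the replicate numbers 1 to 5, but same-numbered libraries deviated together little (r = -0.02, -0.1, 0.19, -0.22 and -0.21), so the numbers are not taken to pair samples. With the replicate block, over 10 libraries, 0 genes passed in all, 0 of the 10 genes among them; Fabp4 was 0.35 (adjusted p = 0.571), Vldlr 0.21, Angptl4 0.01, Fabp3 -0.40 and Fabp5 -0.24.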
